A study of Mus musculus with 16 samples.

Results

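Lmna, Ahnak, Vim, Emp3, Capg, Tagln2, Lgals1, Lgals3, Crip1 and Anxa2 are genes of the nuclear lamina, the intermediate filament and actin cytoskeleton, the membrane and the galectin family. They were followed in single CD4+ T cells of mice infected with the hookworm Nippostrongylus brasiliensis (Nb). The 10 genes, of 32016 measured, were selected on their higher UMI counts in lung than in mesenteric lymph node (MLN) cells of these same data, so their lung and MLN levels are given as a description, without a test. A UMI (unique molecular identifier) marks 1 captured RNA molecule. All other comparisons, except the search for genes of similar pattern, used sorted fractions, lymph nodes or cell classes outside the lung against MLN contrast. The members were still chosen with earlier results of these data known, so these comparisons cannot be taken as independent of the choice.

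All cells came from 4get mice on the C57BL/6 background, which carry an IL-4eGFP reporter, 10 days after infection with 500 larvae. GFP in 4get cells marks licensing of the Il4 locus and not secretion of IL-4, and cells other than conventional Th2 cells, such as NKT cells, can carry it. In a first run, IL-4eGFP+CD4+ cells were sorted from lung and MLN of 2 mice aged 13 weeks, with 1 library for each organ and mouse. In a second run, CD4+ cells with the reporter signal (IL-4eGFP+) and those lacking it (IL-4eGFP-) were collected from the lung-draining mediastinal lymph node (medLN) and the MLN of 2 other mice aged 10 weeks, and hashtag antibodies marked the node and mouse of each cell within 1 library for each sort gate. Lungs were perfused, digested with enzymes, passed through a Percoll step and freed of erythrocytes, whereas nodes were only mashed, so organ and handling cannot be told apart. Gate and library likewise cannot be told apart in the second run. Perfusion can leave some cells in the lung vessels.

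Lamin A/C, the product of Lmna, forms part of the meshwork beneath the nuclear envelope and sets how stiff the nucleus is when a cell squeezes through narrow gaps. Vimentin (Vim) filaments, the large scaffold protein AHNAK, and actin-binding proteins such as CapG and transgelin-2 link the membrane to the cell interior and shape a moving T cell. Annexin A2 binds membranes in the presence of calcium and galectins bind glycans at the surface. CD4+ T cells gain expression of many of these genes when they pass from the naive to the effector state.

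Promoter sequence of the 2 members whose window held the letters TGANTCA, bound by AP-1 factors, is shown because Lmna and Anxa2 turned out to move apart in the comparisons of the lung cells below. The members lie on 10 different chromosomes of GRCm38. Lmna lies at chr3:88480147-88509956 on the minus strand, Anxa2 at chr9:69453620-69491795, Ahnak at chr19:8989284-9076914 and Vim at chr2:13573927-13582826, the last 3 on the plus strand. Capg lies at chr6:72544391-72562983, Tagln2 at chr1:172500047-172507380 and Crip1 at chr12:113146316-113153879. Lgals1 lies at chr15:78926725-78930465, Lgals3 at chr14:47367751-47386160 and Emp3 at chr7:45918023-45921404. Both promoter windows run from 250 bases before to 50 bases after a RefSeq gene start on GRCm38.p6, written 5′ to 3′ on the strand of the gene, with the matching letters in capitals.
Lmna, chr3:88503303-88503602, minus strand: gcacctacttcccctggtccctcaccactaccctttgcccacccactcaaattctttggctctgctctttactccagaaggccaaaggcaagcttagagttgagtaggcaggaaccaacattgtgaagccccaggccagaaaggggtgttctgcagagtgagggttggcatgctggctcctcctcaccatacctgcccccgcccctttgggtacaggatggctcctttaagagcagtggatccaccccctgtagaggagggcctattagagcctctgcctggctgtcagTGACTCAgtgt
Anxa2, chr9:69453433-69453732, plus strand: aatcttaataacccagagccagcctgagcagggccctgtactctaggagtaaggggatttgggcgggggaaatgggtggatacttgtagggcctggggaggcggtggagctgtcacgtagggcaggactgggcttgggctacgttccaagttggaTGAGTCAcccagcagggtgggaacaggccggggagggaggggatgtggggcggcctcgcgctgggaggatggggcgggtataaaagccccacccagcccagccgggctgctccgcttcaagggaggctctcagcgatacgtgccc
The Lmna match lay after the start, and the Anxa2 match lay before it. Among all 32851 windows of the same length, 7.81% held TGANTCA, counted on both strands, against 2 of the 11 windows that represent 9 members. The Lmna window shown lies inside the gene span given above and not at its upstream end. A second Lmna window did not hold these letters. GGGCGG, a KLF/SP motif, stood in 6 of the 11 windows (Tagln2, Lmna, Anxa2, Crip1, Lgals3 and Ahnak) and in 35.7% of all windows. TATAAA was present for Vim, Emp3 and Anxa2 and in 13.6% of all windows, and GGAATG, a TEAD motif, for Tagln2 and Ahnak and in 14.7%. The CArG box of serum response factor was found in none of the 11 windows and in 1.63% of all windows. All motifs were searched on both strands, no match to GGGCGG or TATAAA overlapped the capitals in the windows shown, and a match is a description of letters only.

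Cells retained after quality filters and T cell receptor calls numbered 1082 and 416 in the lung libraries and 2462 and 754 in the MLN libraries, with 2789698 to 14441242 UMIs summed per library. The 8 node samples held 1992 to 2249 cells and 7518857 to 10593214 UMIs each. Levels are given as CPM, the UMIs of a gene for every 1000000 UMIs of the sample. Il4 gave 397 and 318 CPM in MLN, 447 and 388 in lung, and 153 to 188 in the 4 IL-4eGFP+ node samples. T cell markers summed to 3876 to 5678 CPM in all samples. Markers of lung epithelium summed to 3 to 10 CPM, with Sftpc, Scgb3a2 and Krt8 at 0 in the first run. Stromal markers summed to 36 and 39 in lung and 69 and 72 in MLN, with Col3a1 and Dcn at 0 in the first run. Myeloid markers, relevant because macrophages express Vim, Lgals3 and Capg strongly, summed to 58 and 48 in lung against 72 and 143 in MLN, and Lyz2 was at 0 in both lung libraries. Genes of the early response to tissue handling summed to 7725 and 7418 CPM in lung against 826 and 533 in MLN, and their part in the lung values below was not tested. Pairs of first-run libraries shared 0 to 8 cell barcodes and the 2 gates shared 147.

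Lmna separated lung from all other samples. It gave 65.1 and 58.8 CPM in the lung libraries of mouse 1 and mouse 2, and 0.623 and 0.898 in the MLN libraries. Those MLN values rested on 9 and 4 UMIs. In the second run Lmna lay between 0.472 and 1.58 CPM in all 8 node samples of both gates. In lung 1 and lung 2, 25.6% and 20.7% of cells held a Lmna UMI (95% exact intervals 23.0% to 28.3% and 16.9% to 24.9%), against 0.203% and 0.531% of MLN cells. After every cell was thinned to 2000 UMIs, the shares were 9.46% and 9.80% in lung and 0.083% and 0.269% in MLN. These intervals cover counting error only. Lung cells had deeper libraries, with medians of 6891 and 5734 UMIs per cell against 4952 and 4933 in MLN.

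The other 9 members were readily counted in MLN cells and were higher in lung. Ahnak, a giant scaffold protein that binds annexin A2 with S100A10, gave 483 and 534 CPM in lung against 73.5 and 72.1 in MLN. Vim, the intermediate filament protein, gave 1491 and 1716 against 252 and 191. The actin-capping protein gene Capg reached 277 and 217 in lung and stayed at 22.6 and 23.8 in MLN. These 3 genes, like all 10 members, showed no overlap between the organs. Nothing is read from this, since the same contrast chose the members. Tagln2, an actin-bundling protein of the immune synapse, gave 1112 and 1100 against 250 and 203. The galectin genes were also apart, Lgals1 at 2238 and 1791 against 539 and 387, and Lgals3 at 66.1 and 64.5 against 4.43 and 6.29. Crip1, a LIM-domain protein, gave 1615 and 1711 against 446 and 390, and Emp3, a tetraspan membrane protein, 371 and 386 against 114 and 111. Anxa2 had the closest organs in mouse 1, at 123 and 189 in lung and 76.6 and 53.4 in MLN.

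**Figure D1:**
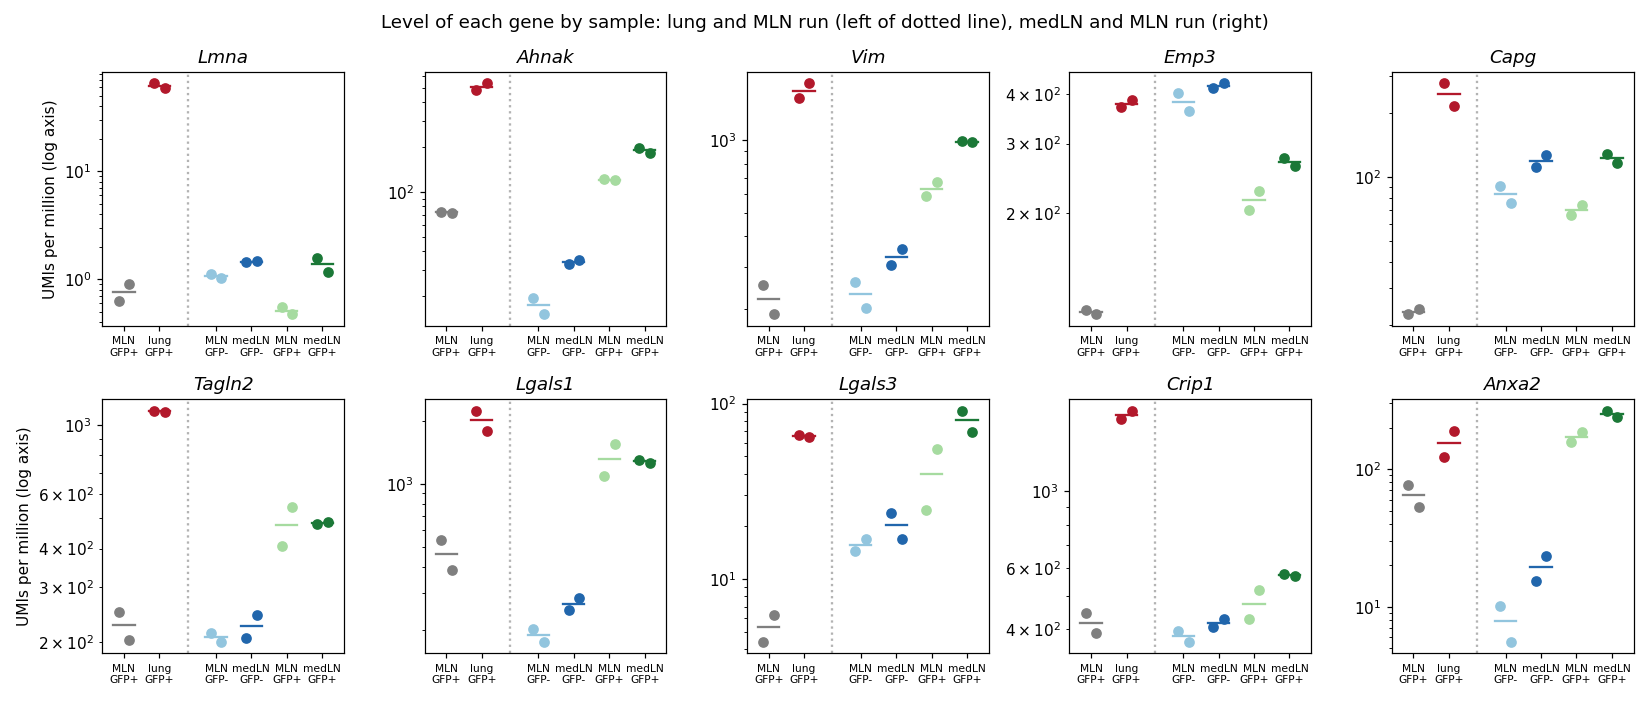
CPM of the 10 members (log scale) in each library of the lung and MLN run and in each hashtag sample of the medLN and MLN run. Lmna stood between 58.8 and 65.1 in the lung libraries and below 2 in every node sample, while the other members were present in all samples.

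On the log2 scale after TMM scaling, the lung over MLN ratio within mouse 1 and mouse 2 was largest for Lmna, at 6.83 and 5.93. Anxa2 had 0.88 and 1.88, the lowest value in mouse 1, and Emp3 was lowest in mouse 2. Lgals3 had 4.09 and 3.40, Capg 3.82 and 3.24, Ahnak 2.92 and 2.95, and Vim 2.77 and 3.23. Crip1 had 2.06 and 2.20, and Emp3 had 1.90 and 1.86, with little spread between the mice. The median of the members was 2.64 ± 0.11 (SD, n = 2 mice). All 10 members lay higher in both lung libraries than in both MLN libraries, as did 25.0% of the 10587 genes tested, and nothing is read from this count since the same contrast chose the members. Scaling to library totals put the median over all genes at -0.20 and -0.07 in the 2 mice and left every member higher in lung. With proliferating-like cells left out, which was decided after the data were seen, Anxa2 had 1.2 and 1.11.

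Clusters of first-run cells, built with the members held out of the variable genes, placed these levels in cell groups. The effector-like lung cells, 845 and 292 in mouse 1 and 2, carried Il13, Il5 and Areg and had Lmna at 67.8 and 76.9 CPM, Capg at 325 and 281 and Ahnak at 525 and 628. Anxa2 stood at only 77.8 and 90.0 in them. The lung cells of a cluster led by Ccr7, S1pr1 and Klf2 had Lmna at 15.3 and 13.2 and Capg at 48.5 and 45, but Crip1 at 1809 and 2071 and Anxa2 at 149 and 135. Within lung, Lmna and Capg were thus lower and Crip1 and Anxa2 higher in the Ccr7 and S1pr1 cluster than in the effector-like cells of both mice.

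Proliferating-like cells formed the only cluster with at least 40 cells from every first-run library. Lmna stood at 86.5 and 45.8 CPM in its lung cells and at 0 and 1.68 in its MLN cells. Vim stood at 2276 and 3147 against 885 and 612, and Ahnak at 381 and 398 against 84.6 and 63.7. The organs lay apart for these 3 genes within the cluster. This is again the contrast that chose the members, and the share of all genes was not counted. Anxa2 lay closer between the organs in mouse 1, at 290 and 502 in lung and 271 and 90.5 in MLN.

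Among MLN cells, the cluster with Klf2 and S1pr1 among its leading genes (144 and 58 cells) had Lmna at 11.8 and 3.32 CPM, whereas the other clusters of MLN T cells had 0 to 2.28. The value of mouse 1 rested on 9 UMIs, and only 5 cells of the whole MLN 1 library held a Lmna UMI. The value of mouse 2 rested on 1 UMI, as did the highest of the other clusters. Mouse 2 thus shows no difference at this depth. The Klf2 and S1pr1 cluster also had Emp3 at 402 and 418, against 371 and 386 in the whole lung libraries, and Vim at 874 and 441. The MLN cluster led by Rflnb and Smtn (659 and 258 cells) had the reverse picture. Lmna was at 0 there, Vim at 43.5 and 32.6, Emp3 at 19.6 and 22.0 and Capg at 3.62 and 7.94. In the follicular helper-like cluster a (555 and 105 cells) Lmna was also at 0 and Vim at 101 and 165, and the effector-like MLN cells (165 and 61) had Ahnak at 237 and 240 with Vim at 254 and 242.

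**Figure D2:**
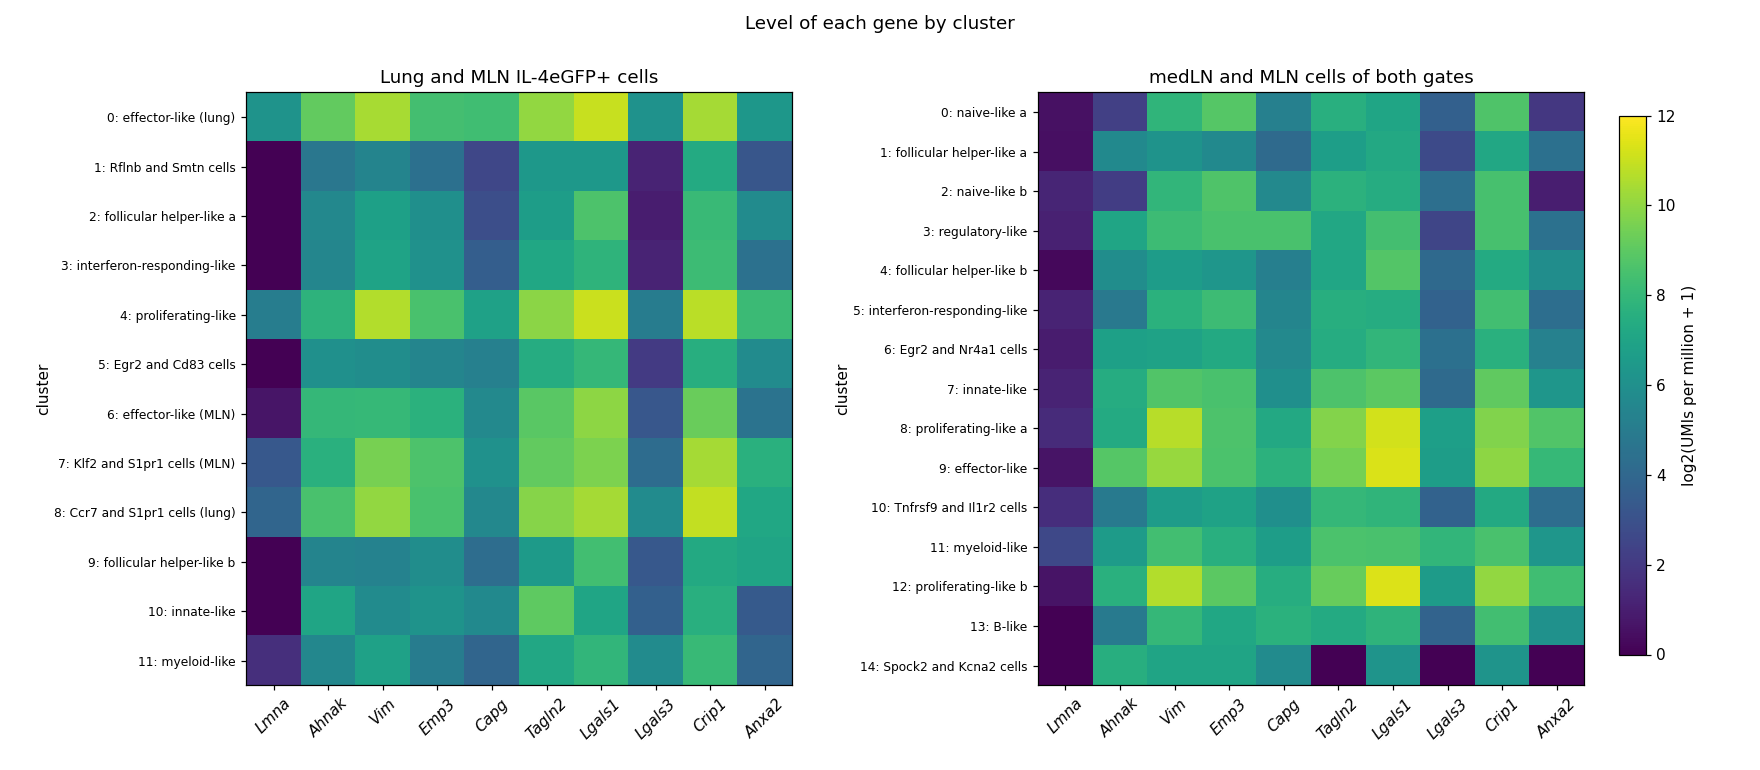
Level of each member by cluster, as log2(CPM + 1) in colour, with the cells of all samples of a run summed in each cluster. In the first run Lmna had 67.8 and 76.9 CPM in the effector-like cells and 86.5 and 45.8 in the proliferating-like cells of the 2 lung libraries, the latter lowered in the plot by MLN cells of that cluster, and it was at 0 in the Rflnb and Smtn cells.

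Node cells of both gates were compared next, a contrast other than lung against MLN. Since the members were chosen with earlier results of these data known, the counts of members called below are not independent support. Ahnak, Anxa2, Lgals1, Lgals3, Vim, Tagln2 and Crip1 were higher in IL-4eGFP+ cells and Emp3 and Capg were lower. That is 7 of 10 members higher and 2 lower, against 31.3% and 31.5% of the 11278 genes tested, in edgeR's quasi-likelihood test with Benjamini-Hochberg adjustment at 0.05. Each gate held 4 samples, the medLN and MLN of 2 mice, and the fit had organ as a covariate.

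Anxa2 had the widest gap between the gates. It gave 158 and 186 CPM in the MLN and 266 and 241 in the medLN of IL-4eGFP+ cells, and 10.2, 5.6, 15.4 and 23.5 in the same samples of IL-4eGFP- cells. The log2 fold change of Anxa2 was 3.80 ± 0.15 (SE, edgeR adjusted p = 1.33e-09). Every IL-4eGFP+ sample lay far above every IL-4eGFP- sample, but the share of all genes without overlap between the gates was not counted.

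Ahnak followed with means of 155 ± 40.8 and 25.4 ± 9.69 CPM in IL-4eGFP+ and IL-4eGFP- cells (SD, n = 4 samples). Its log2 fold change was 2.44 ± 0.07 (SE, edgeR adjusted p = 1.31e-10). Lgals1, a secreted galectin raised in activated T cells, had means of 1299.5 ± 189.9 and 228 ± 48.6, and the log2 fold change was 2.33 ± 0.12 (edgeR adjusted p = 1.08e-08). The lowest IL-4eGFP+ sample of each of these genes lay above the highest IL-4eGFP- sample, again without a count over all genes. Lgals3 had 24.8, 55.2, 91.1 and 69.2 in IL-4eGFP+ cells and 14.4 to 23.9 in IL-4eGFP- cells, so that MLN mouse 1 came within 1 CPM of the other gate. The log2 fold change of Lgals3 was 1.5 ± 0.24 (edgeR adjusted p = 0.000153).

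Vim had means of 807 ± 208 and 280 ± 64.0 CPM and a log2 difference of 1.32 ± 0.08 (edgeR adjusted p = 2.23e-08). Tagln2 had 480.0 ± 56.5 and 216 ± 19.3, a log2 difference of 0.95 ± 0.08 (edgeR adjusted p = 7.89e-07). Crip1 changed least of the 7, with 0.19 ± 0.06 (edgeR adjusted p = 0.0214), and this call was lost without IL-4eGFP+ MLN 2, IL-4eGFP+ medLN 1, IL-4eGFP+ medLN 2 or IL-4eGFP- medLN 1 in turn. Emp3 went the other way, from 401 ± 27.1 in IL-4eGFP- to 243 ± 32.9 in IL-4eGFP+ cells, a log2 difference of -0.93 ± 0.06 (edgeR adjusted p = 3.98e-08). Capg had 101 ± 22.8 and 96.5 ± 31.0 and -0.29 ± 0.08 (edgeR adjusted p = 0.0078), with samples of both gates interleaved. Lmna had 5 to 15 UMIs per sample and -0.64 ± 0.32 (edgeR adjusted p = 0.103).

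**Figure D3:**
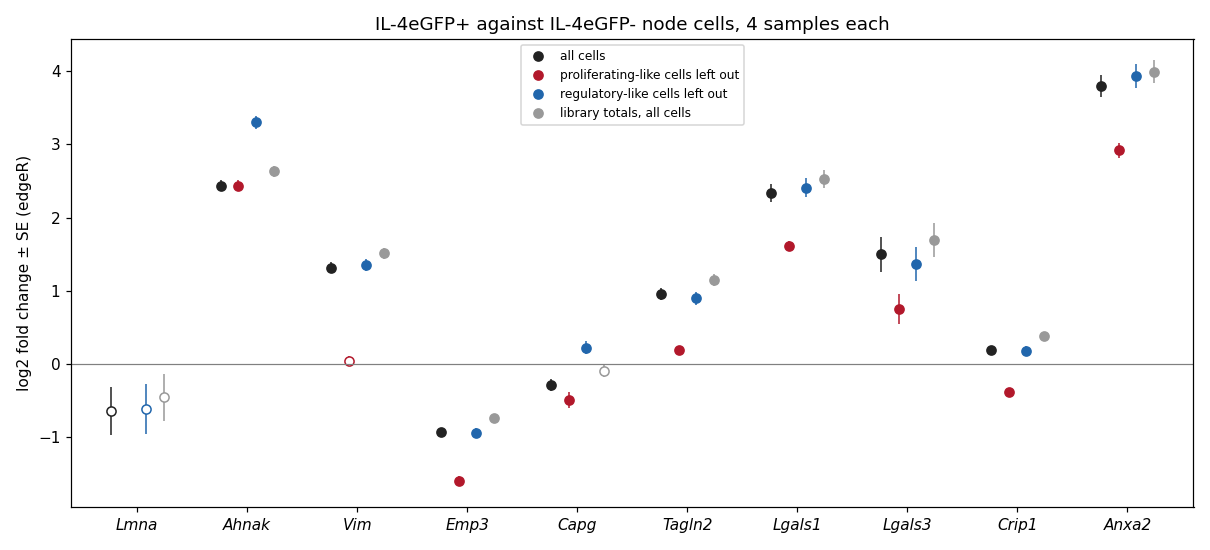
Log2 fold change (edgeR) of each member between IL-4eGFP+ and IL-4eGFP- node cells under 4 settings. These were all cells, proliferating-like cells left out, regulatory-like cells left out, and scaling by library totals. Bars are SE. With all cells, Anxa2 had the largest fold change, and Emp3 and Capg were lower in IL-4eGFP+ cells. Vim was near no change without proliferating-like cells, and Capg was higher in IL-4eGFP+ cells without regulatory-like cells.

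The make-up of the gates moved with these values. Proliferation markers summed to 1337 to 1730 CPM in IL-4eGFP+ and 165 to 320 in IL-4eGFP- samples, and naive markers to 507 to 548 and 1779 to 1962. Without the 1126 proliferating-like cells, an alternative chosen after seeing the data, Vim no longer differed between the gates by this test (log2 fold change 0.04, edgeR adjusted p = 0.671). Crip1 then was lower in IL-4eGFP+ cells (-0.39, edgeR adjusted p = 7.25e-05), Tagln2 fell to 0.19 (edgeR adjusted p = 0.00683), and Ahnak stayed at 2.44. Of 9 members tested then, 5 were higher and 3 lower, against 28.7% and 26.8% of genes. Proliferating-like cells of cluster a in the IL-4eGFP+ samples had Vim at 1351 to 2105 and Anxa2 at 377 to 569 CPM.

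Regulatory-like cells had high Capg. Its level in the regulatory-like cluster, led by Foxp3, was 271 to 631 CPM in the 8 samples. Without these 1469 cells, again decided after seeing the data, Capg was higher in IL-4eGFP+ cells (0.23, edgeR adjusted p = 0.0351) and Ahnak rose to 3.31. Scaling by library totals instead of TMM, added after seeing the data, moved the median of all genes to 0.18 and the calls from 3528 higher and 3558 lower to 5266 and 2041. Capg then had -0.09 (edgeR adjusted p = 0.319), while the direction of the other 8 called members did not flip. Leaving out 232 myeloid-like cells changed no call of a member. Myeloid markers summed to 232 to 388 CPM in IL-4eGFP+ and 148 to 386 in IL-4eGFP- samples.

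The second-run clusters differed in Ahnak and Emp3 in different ways. In naive-like cells of the IL-4eGFP- gate, Ahnak lay at 2.52 to 4.97 CPM and Emp3 at 387 to 471. In effector-like IL-4eGFP+ cells, which carried Il13, Areg and Plac8, Ahnak lay at 374 to 525, Lgals1 at 2317 to 2699 and Emp3 at 327 to 451. Emp3 thus overlapped between these clusters and Ahnak did not, and the share of all genes without overlap was not counted. The follicular helper-like cluster a of the IL-4eGFP+ gate had Emp3 at 27.9 to 68.3, Vim at 47.0 to 91.7 and Capg at 7.93 to 27.8. Lmna did not exceed 3.23 CPM in the proliferating-like or effector-like node cells.

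Related genes of the same pathways were counted from lists drawn up with earlier results known, to be read against the 31.3% of all genes higher and 31.5% lower. The lists were counted with all cells and not again without the proliferating-like cells, whose part in these values was not tested. Among annexins and AHNAK partners, 6 of 8 genes tested were higher in IL-4eGFP+ cells and 0 lower. S100a10, which joins annexin A2 to AHNAK, had a log2 difference of 1.28 ± 0.08 and Anxa5 of 0.51 ± 0.04, both called by edgeR. Of 12 genes of the nuclear lamina and envelope, 5 were higher and 1 lower, with Lmnb1 at 1.8 ± 0.08 and Tmpo at 0.89 ± 0.09. Of 31 actin-binding genes, 16 were higher, led by Cotl1 (0.50), Actg1 (0.49) and Arpc3 (0.44), and 7 lower, led by Actn1 (-1.57), Pdlim1 (-1.34) and Evl (-0.76). Of 9 myosins and tropomyosins, 4 were higher (Myl6 at 0.46) and 2 lower. Of 6 intermediate filament, LIM and EMP family genes, 4 were higher and 1 lower (Plec at -0.42). Of 3 genes tested from the galectin list, members left out, 1 was higher and 2 lower (Lgals9 at -0.32). The higher one was Lgals3bp (0.34), whose product binds a galectin and is not a galectin itself.

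For adhesion and entry, 4 of 8 genes were higher, with the integrin and homing genes Itgb1 at 2.10 ± 0.16, Cd44 at 1.52 ± 0.13 and Itgal at 1.01 ± 0.06, and 3 were lower, with the adhesion gene Selplg at -0.73 ± 0.06. All 5 node recirculation genes were lower, with Ccr7 at -2.46, S1pr1 at -1.77 and Lef1 at -1.7. The medians of the lists were 0.90 for annexins and AHNAK partners, 0.11 for actin binding, 0.08 for lamina and envelope, 0.21 for adhesion and -1.7 for recirculation, against -0.02 over all genes tested. With scaling by library totals, all of these values would stand higher by the shift of the median given above.

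Between the nodes, IL-4eGFP+ cells of the medLN had more Ahnak, Capg, Vim and Anxa2 than those of the MLN. These 4 of 10 members were higher, none lower, against 0.675% of 11262 genes higher in edgeR's quasi-likelihood test. Capg had 129 and 117 CPM in the medLN and 66.5 and 73.7 in the MLN, a log2 difference of 0.80 ± 0.08 (edgeR adjusted p = 0.00553). Ahnak had 198 and 183 against 121 and 120 (0.65 ± 0.06, edgeR adjusted p = 0.00527), and Vim 989 and 981 against 585 and 674 (0.63 ± 0.07, edgeR adjusted p = 0.00686). Anxa2 had 266 and 241 against 158 and 186 (0.55 ± 0.09, edgeR adjusted p = 0.0314). None of the 4 genes overlapped between the nodes, but the share of all genes without overlap was not counted. Lgals3 at 0.98 ± 0.30 (edgeR adjusted p = 0.213), Emp3 at 0.31 ± 0.07 (0.0949), Crip1 at 0.27, Tagln2 at 0.01 and Lgals1 at -0.06 did not pass. With 2 samples a node, these calls rested on few hashtag samples, all of 1 library. Without IL-4eGFP+ medLN 1 there were 0, without medLN 2 Capg and Ahnak alone were called, and without MLN 2 there were 7, Emp3, Crip1 and Lgals3 added. Without MLN 1, Lgals1 had -0.30. Each of these fits left a lone sample for a node, so calls kept or added in them give no support.

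In IL-4eGFP- cells, 2 members were higher in the medLN, against 0.150% of 10683 genes. Ahnak had 32.7 and 34.6 CPM against 19.4 and 15 (0.91 ± 0.12, edgeR adjusted p = 0.00937), and Lgals1 had 249 and 285 against 202 and 176 (0.45 ± 0.08, edgeR adjusted p = 0.0408). Anxa2 had 1.24 ± 0.25 (edgeR adjusted p = 0.104). With the mouse as a block, 5 members were called, with Vim (edgeR adjusted p = 0.00871), Capg (0.00552) and Anxa2 (0.0104) added, and the genes called rose from 19 to 65. Leaving out any 1 of the 4 samples left a lone sample for a node and raised the number of all genes called, so those calls add no support. Without regulatory-like cells no member was called, although the differences were as large, at 1.16 for Ahnak (edgeR adjusted p = 0.0505) and 0.47 for Lgals1 (0.166).

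The difference between the gates in this node effect was tested as an interaction, and none of the 10 members passed, against 0.156% of 11534 genes (18 genes in either direction). At an unadjusted p under 0.05, 807 genes passed in edgeR and 258 in DESeq2, which called 37 genes and 0 members after adjustment. Values of the interaction were 0.34 ± 0.14 for Capg, 0.19 ± 0.15 for Vim, -0.26 ± 0.13 for Ahnak and -0.69 ± 0.30 for Anxa2, on the log2 scale. Lgals1 had -0.50 ± 0.20, and -0.75 without IL-4eGFP+ MLN 1, a fit that left a lone MLN sample in that gate. In the pathway lists, the medLN of IL-4eGFP+ cells had 1 of 31 actin-binding genes, 1 of 9 myosins and tropomyosins, 1 of 8 adhesion genes and 1 of 5 recirculation genes higher, against 0.675% of all genes, and 1 of 8 adhesion genes lower, against 0.604%.

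Cells were then split by whether they held a UMI of Ccr7 or S1pr1, receptors that carry T cells into or out of lymph nodes. This class was chosen after the data were seen, and both receptors were left out of the test. In lung, 24.8% and 36.8% of cells fell in the receptor class, in MLN 24.2% and 26.5%, in IL-4eGFP+ node samples 23.9% to 40% and in IL-4eGFP- samples 74.1% to 76.0%. Cells with a receptor UMI were deeper, with means of 8673 and 7872 UMIs per cell against 7568 and 6028 in lung. Where cells were thinned, the class was set again from the thinned counts. A cell could then lose its receptor UMI and change class, so thinned values differ from the main ones in class as well as depth.

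In lung, the split set Anxa2 and Lmna against each other. Anxa2 gave 230.2 and 343 CPM in cells with a receptor UMI and 82.1 and 72.5 in those without, a log2 difference of 1.87 ± 0.19 (edgeR adjusted p = 0.000255). Lmna gave 32.7 and 39.0 with and 77.3 and 73.8 without, a log2 difference of -1.08 ± 0.18 (edgeR adjusted p = 0.00674). These were 1 of 10 members higher and 1 lower, against 1.42% and 1.06% of 8858 genes. Capg at -0.74 ± 0.19 (edgeR adjusted p = 0.07) and Crip1 at 0.64 ± 0.16 (0.0719) did not pass. With the mouse as a block Capg (edgeR adjusted p = 1.83e-07), Crip1 (1.3e-09) and Vim (0.23, edgeR adjusted p = 0.0435) passed, and the genes called rose from 220 to 812. In lung 1 and lung 2 the log2 ratio was 0.0016 and 0.42 for Vim, so its call does not show a change that both mice share. It was 0.39 and 0.85 for Crip1, and -0.63 and -0.98 for Capg. Without lung 1 or without lung 2, no member was called, and without the T cell receptor filter Lmna was not called (-0.83, edgeR adjusted p = 0.0707). With cells thinned to 2000 UMIs Anxa2 had 0.96, Lmna -2.44 and Capg -1.15, all called. Of the 10 members, 2 then had a positive value and the median was -0.36, against 5 and -0.02 in the main fit. Proliferating-like cells were kept in this and the following splits, and their part was not tested. In the first run, their cluster, of both organs, had Anxa2 at 285 CPM and a median of 14156 UMIs per cell.

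In MLN the same split gave higher levels of Vim, Emp3, Capg and Crip1 in cells with a receptor UMI. These were 4 of 9 members tested, against 1.08% of 9827 genes, and Lmna had too few UMIs. Vim gave 588 and 356 CPM with and 119.9 and 121 without (2.05 ± 0.20, edgeR adjusted p = 0.00238). Emp3 gave 217 and 178 against 73.9 and 82.9 (1.42 ± 0.12, edgeR adjusted p = 0.00197). Capg (1.18 ± 0.17, edgeR adjusted p = 0.0123) and Crip1 (1.01 ± 0.14, 0.0102) followed. Anxa2 had 172 and 39.3 in MLN 1 but 55.4 and 52.6 in MLN 2. With the mouse as a block all 9 were among 825 genes called, adding Anxa2, Lgals1, Tagln2, Ahnak and Lgals3. The mice differed widely for these 5 genes, so the added calls do not show a change that both mice share. In MLN 1 and MLN 2 the log2 ratio was 1.12 and 0.15 for Lgals1, and 1.10 and 0.24 for Tagln2. It was 0.74 and 0.02 for Ahnak, and 2.09 and -1.33 for Lgals3, where MLN 2 had 4 UMIs in the receptor class. Without MLN 1, no member was called, and without MLN 2 Vim, Emp3, Crip1, Tagln2 and Anxa2 were. Split by S1pr1 alone, 8 members were higher, against 1.46% of genes, and by Ccr7 alone only Emp3.

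IL-4eGFP+ node cells gave 9 of 9 members tested higher in the receptor class, against 21.3% of 10516 genes. Vim gave 1132 to 1531 CPM with and 292 to 618 without a receptor UMI (1.68 ± 0.10, edgeR adjusted p = 6.67e-09). Anxa2 gave 285 to 379 against 90.0 to 156 (1.65 ± 0.08, edgeR adjusted p = 1.52e-09), and Emp3 328 to 366 against 138 to 194 (1.15 ± 0.06, edgeR adjusted p = 2.44e-09). The groups of 4 samples did not overlap for these 3 genes, nor for Lgals1, Crip1 and Tagln2. How many of all genes showed no overlap was not counted. Lgals3 had 1.01 ± 0.23, Crip1 0.99 ± 0.07, Lgals1 0.96 ± 0.10, Tagln2 0.93 ± 0.09, Capg 0.92 ± 0.09 and Ahnak 0.44 ± 0.05, all called. Depth moved with this class, at 5870 to 7026 UMIs per cell against 3756 to 4572. After thinning to 1000 UMIs per cell, with the class set again, Emp3 (0.82) and Crip1 (0.49) were called higher. Lgals3 was then called lower (-1.4, edgeR adjusted p = 0.0161), and Vim had 0.26, Anxa2 0.08 and Lgals1 -0.16 without passing. By S1pr1 alone 9 of 9 were higher, against 18.1% of genes. By Ccr7 alone 4 were higher and Ahnak was lower (-0.47, edgeR adjusted p = 0.0011), against 19.3% and 17.0%.

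**Figure D4:**
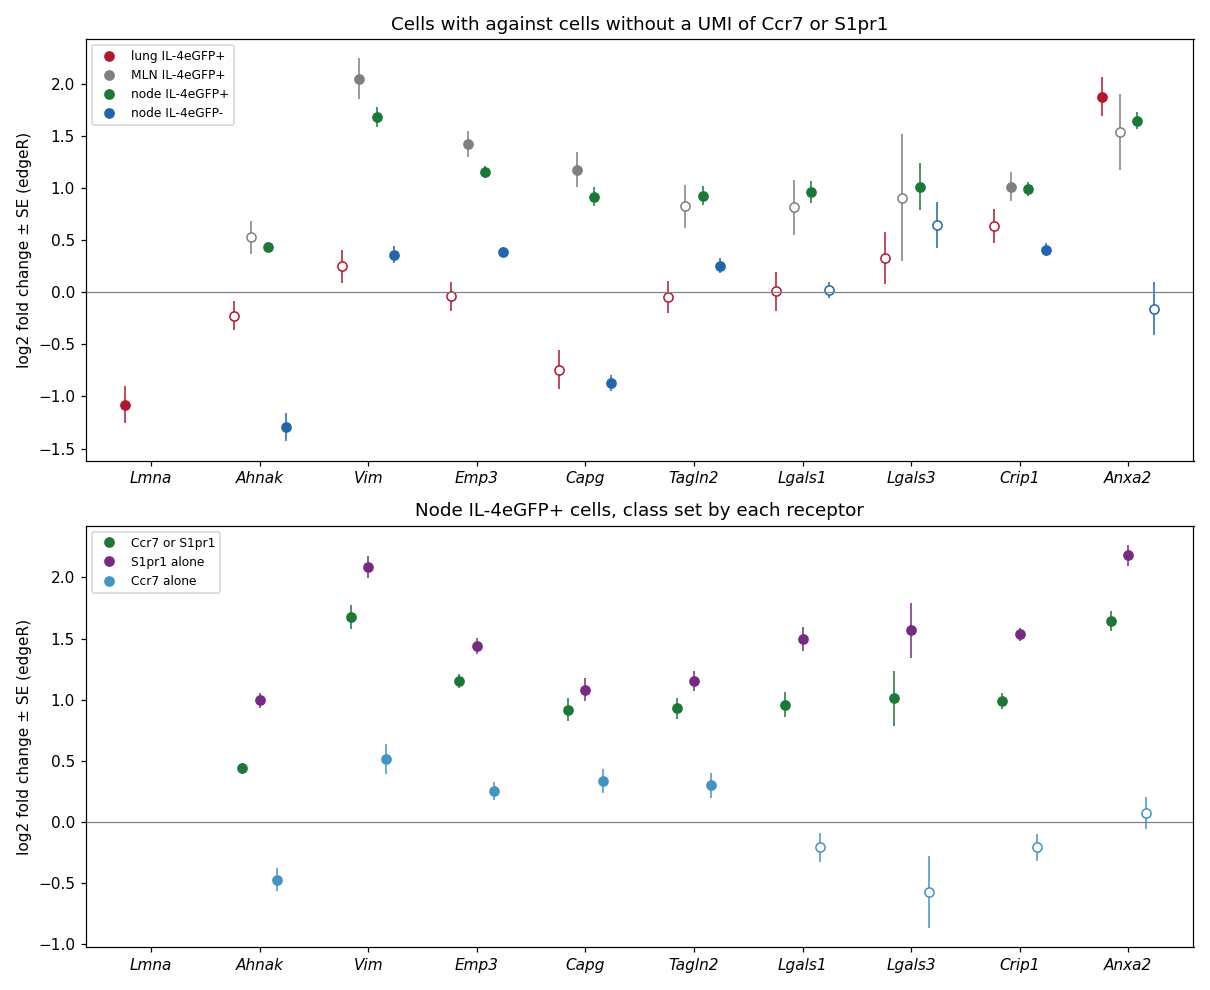
Log2 fold change (edgeR) of each member between cells with and cells without a UMI of Ccr7 or S1pr1, for the lung and MLN libraries and the 2 node gates (upper panel), and for IL-4eGFP+ node cells with the class set by each receptor (lower panel). Bars are SE and filled points passed the adjusted threshold of 0.05. In lung, Anxa2 stood at 1.87 and Lmna at -1.08, and Ahnak and Capg had opposite signs in the IL-4eGFP+ and IL-4eGFP- node samples.

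In IL-4eGFP- cells, where most cells hold a receptor UMI, Crip1 (0.41 ± 0.06, edgeR adjusted p = 0.000205), Emp3 (0.39 ± 0.05, 4.96e-05), Vim (0.36 ± 0.08, 0.00929) and Tagln2 (0.25 ± 0.07, 0.0345) were higher in the receptor class. Ahnak and Capg were lower. That was 4 of 9 members higher and 2 lower, against 2.73% and 5.35% of 9923 genes. Ahnak gave 12.5, 10.3, 25.8 and 27.8 CPM with and 44.9, 32.6, 58.7 and 57.0 without (-1.3 ± 0.14, edgeR adjusted p = 8.45e-06). Capg gave 64.4 to 102 with and 116 to 209 without (-0.87 ± 0.08, edgeR adjusted p = 1.38e-06). Neither gene overlapped between the classes, but the share of all genes without overlap was not counted. With mouse and node as a block Lgals3 was called as well (0.64, edgeR adjusted p = 0.0307). Regulatory-like cells of this gate had Ahnak at 66.5 to 150 and Capg at 271 to 439 CPM, and their part in this difference was not tested. After thinning, Emp3 (0.26), Capg (-0.77) and Ahnak (-0.86) were called. The Tagln2 call was lost without MLN 1 (edgeR adjusted p = 0.165) or MLN 2 (0.0675), and Lgals3 was called without MLN 1 (0.0207).

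The genes whose pattern was most like that of the members were Tgfb1, Eprs, Plp2, Rheb, Atp2b1 and Ywhaz, with Pearson r of 0.991 to 0.978 over 12 samples. The measure was the correlation of log2(CPM + 1), centred within each run, with the mean of the members, over 2499 genes. The 12 samples share 4 animals, 6 libraries and the differences in depth between them. They include the lung and MLN libraries of the contrast that chose the members. Likeness within that run, where every member had r of at least 0.93, was therefore set in part by the choice. Tgfb1 gave 564 and 503 CPM in lung and 197 and 211 in MLN. Neither run alone named any of these 6 genes among its own 6. Against the mean of all the members, Vim had 0.985 and Tagln2 0.975, while Anxa2 had 0.654 and Emp3 0.544. In the second run alone Emp3 had -0.49, the only negative value among the members.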

How the data were processed

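The authors sequenced 10x 5′ libraries, and the deposited files hold UMI counts per gene and cell, made with Cell Ranger (versions 2.1.1, 3.0.1 and 6.1.2 are named in the submitters' processing notes). The first run used mm10 and was also deposited with T cell receptor contigs. The genome build of the second run was not stated in the labels or methods. The authors' counts were used as deposited. Cells needed more than 500 UMIs, more than 500 genes, under 7% mitochondrial UMIs and a ratio of log10 genes to log10 UMIs above 0.8. First-run cells also needed a T cell receptor call, and second-run cells a single hashtag by Seurat 5.3.0 (16748 cells). The sort gate of a second-run cell was read from its barcode ending. T cell receptor genes (269) were left out.

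Counts were summed per library or hashtag sample and tested with edgeR 4.0.16 (quasi-likelihood, TMM, filterByExpr, Benjamini-Hochberg at 0.05), with DESeq2 1.42.0 as an alternative, under R 4.3.3. Samples of the same animals are paired, and pairs deviated together with r of 0.15 to 0.16 between gates, 0.12 to 0.24 between nodes and 0.082 to 0.32 between receptor classes. The main tests had no block. Tested on simulated data, the gate design recovered 200 of 200 changed genes with 3 false calls among 11205 genes, and the first-run split 196 of 196 with 7 false calls among 8839 genes, at a log2 change of 2. The simulated samples were independent, with the same spread set for every gene and no shared animals. These counts therefore give no rate of false calls for the real samples or for smaller changes. Clusters used 2000 variable genes without the members, 15 principal components and a resolution of 0.8. They were named from marker lists. No doublet caller was run beyond the hashtags, and receptor calls with extra chains were kept.

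Members and gene lists were chosen with earlier results of these data known. All 10 members are named, with up to 3 called genes a direction from each list and the 6 genes most like the members, all with a mean of at least 50 CPM. Promoter windows came from RefSeq on GRCm38.p6. They matched 9 members. The receptor class (Ccr7 or S1pr1) was chosen after the data were seen, in place of the planned one, and 1 item is not reported here.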

Additional observations from a re-analysis of the deposited data

Results flagged for a closer look

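The log2 ratio of cells with to cells without a UMI of Ccr7 or S1pr1 was compared between kinds of sample. In 5 cases its sign was the same in every sample of a kind and opposite in every sample of the other kind. None of these differences between kinds of sample was itself tested, and the share of all genes meeting this rule was not counted. Some ratios were near no change, at -0.013 for Emp3 in lung 1 and 0.022 for Ahnak in MLN 2, against 0.74 in MLN 1. For Emp3, the mean log2 ratio of cells with to cells without a receptor UMI was -0.071 in the 2 lung libraries and 1.33 in the 2 MLN libraries. For Capg it was -0.80 in lung and 1.06 in MLN, and for Ahnak -0.25 in lung and 0.38 in MLN. In the node samples, Ahnak had a mean log2 ratio of 0.37 in the 4 IL-4eGFP+ samples and -1.43 in the 4 IL-4eGFP- samples. Capg had 0.87 in IL-4eGFP+ and -0.93 in IL-4eGFP- samples. Members' values were also searched for a single sample far from the rest in 20 groups of 4 samples, and 0 were marked. Chance would mark about 1 in 20 if the samples of a group were alike. Each group held medLN and MLN samples of a gate, so a difference between the nodes can hide a stray sample. The first-run libraries were not searched. The result therefore does not show that no sample stood apart.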

How the results depend on the processing

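The number of members called in the gate comparison stayed within 1.5 times its value of 9 in all alternatives run, and all 10 lung over MLN ratios stayed positive in all of theirs. Of 997 values of single members, 860 kept their side of the threshold (33 of them uncalled values that changed sign), 64 gained a call, 57 lost one and 16 reversed. A reversed value changed sign and was called in the main fit, in the alternative or in both. Some of the 16 were therefore calls lost near no change and not calls in the other direction. The cause of these changes was not tested in any alternative. Where a first-run split left 1 sample a class, that lone sample was assumed to vary like the other organ.

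The median log2 ratio of the members between lung and MLN was 2.64, 2.51 with library totals and 2.86 with thinned cells. Of the 6 genes most like the members, each run alone named 0.

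For medLN against MLN in IL-4eGFP+ cells, leaving out 1 sample gave 0 to 7 members and 13 to 166 genes, and without a filter on low counts 47 genes were called. In IL-4eGFP- cells, 0 members and 2 genes were called without the filter, 5 members and 65 genes with the replicate block, and 5 members and 98 to 194 genes with 1 sample left out. Of the alternatives chosen after seeing the data, leaving out regulatory-like cells gave 0 members and 6 genes, proliferating-like cells 1 member, and myeloid-like cells 1 member and 12 genes. The interaction called 37 genes with DESeq2, 68 without the filter and 44 with the replicate block, and with 1 sample left out 0 to 1 members and 4 to 13 genes.

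For the lung receptor split, 4 members and 471 genes were called without the filter, 5 and 812 with the replicate block, 129 genes with DESeq2 and 1 member without the T cell receptor filter. With 1 mouse left out, 0 members and 24 to 115 genes were called. Of the settings added after seeing the data, S1pr1 alone gave 4 members. The replicate block with thinned cells gave 7 members, 1 higher and 6 lower, and 402 genes. For MLN, 8 members and 415 genes were called without the filter, 9 and 825 with the replicate block, and thinned cells gave 47 genes. Ccr7 alone gave 1 member and 33 genes, S1pr1 alone 8 members, and the block with thinned cells 8 members. With 1 mouse left out, 0 to 5 members and 3 to 57 genes were called.

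For IL-4eGFP+ node cells, thinning gave 3 members and 147 genes, thinning with the block 3 members and 217 genes, and Ccr7 alone 5 members. For IL-4eGFP- node cells, thinning gave 3 members and 92 genes, thinning with the block 193 genes, S1pr1 alone 465 genes and no filter on low counts 1232 genes. The replicate block changed no other call count by over 1.5 times.

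Reversed values on the log2 scale were, in the gate comparison, 0.23 for Capg without regulatory-like cells and -0.39 for Crip1 without proliferating-like cells. In the lung split they were -0.33 for Vim and -0.54 for Lgals1 with the block and thinned cells and -1.29 for Lgals3 with Ccr7 alone. In IL-4eGFP+ node cells, thinning gave -1.4 for Lgals3 and -0.16 for Lgals1, the block with thinned cells -1.42 and -0.17, and Ccr7 alone -0.58 and -0.21, with -0.21 for Crip1 and -0.47 for Ahnak. In IL-4eGFP- node cells, Tagln2 had -0.048 with thinned cells and -0.049 with the block and thinned cells, and Ccr7 alone gave -0.38 for Lgals1.

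Lmna counts of 4 to 15 UMIs in each node sample limit the precision of this gene outside the lung. With 2 mice a run, p-values rest on few samples, and those of the blocked fits need not reflect how far the mice differ.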
